A study of Homo sapiens with 12 samples.

Results

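Protease-activated receptors and genes that hold blood clotting in check were followed in DU145, an established human prostate cancer cell line, after knockout of the small GTPase gene RAC1. The 7 genes are the receptors F2R, F2RL1 and F2RL2, the Kunitz-type inhibitors TFPI and TFPI2, and the protein C pathway receptors THBD and PROCR. They were taken by symbol from a table of 56832 genes, and all 7 were found there. The set was selected on TPM levels in these same 12 libraries, and F2RL1 was chosen by its spread among the RAC1-positive lines, so the levels below are a description. RAC1 was knocked out in 3 clones made with Cas9: sgRAC1 clone 1, from the guide sgRAC1_1, and sgRAC1 clones 2 and 3, both from the guide sgRAC1_2. The lines they were set against carried RAC1: parental DU145, and sgNTC clones 1 and 2, which went through Cas9 with a non-targeting guide. Each line is a single clone except the parental one, all were kept in serum-supplemented RPMI, and each gave 2 biological replicates, 1 per batch.

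Levels are in TPM, the authors' unit, in which read numbers are divided by transcript length and scaled to a sum of 1000000 per library. The sequencing depth behind them is unknown. RAC1 itself ran from 36.5 to 59.2 TPM over the 6 knockout libraries, against 149 to 202 TPM over the 6 RAC1-positive ones. Library sgNTC clone 2 replicate 1 stood apart, with 13608 genes above 0 against 20470 to 25156 elsewhere and a median correlation with the other libraries of 0.868 against 0.937 to 0.956. For the 7 genes, results that rest on it are given with and without it. Tests and counts for the other listed genes and the neighbours are given with it only. The epithelial keratin genes KRT8 and KRT18 averaged 238 ± 64.1 and 129 ± 54.3 TPM across knockout lines, against 201 ± 35.8 and 236 ± 124 TPM across RAC1-positive lines (SD, n = 3 each). KLK3, which encodes prostate-specific antigen, was listed at 0 in every library. Several of the 7 genes are best known from blood vessel walls. None of 8 endothelial marker genes reached a mean of 1 TPM in either genotype, and their summed level was 0.312 to 1.502 TPM in knockout libraries and 0.101 to 2.53 TPM in RAC1-positive libraries, with VWF at 0 throughout. Summed levels of 7 blood cell markers were 0.890 to 4.56 TPM in knockout libraries and 0 to 1.81 TPM in RAC1-positive libraries, and those of 7 fibroblast markers 0.276 to 1.003 and 0.141 to 0.751 TPM. PTPRC, GP9 and LUM were at 0 in every library.

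Protease-activated receptors are G protein coupled receptors that carry their own ligand. A protease cuts the extracellular end of the receptor, and the newly exposed end folds back and activates it. F2R encodes PAR1, the main thrombin receptor of many cells. F2RL1 encodes PAR2, which trypsin-like proteases and the complex of tissue factor with factor VIIa can activate. F2RL2 encodes PAR3, which thrombin cuts and which in mice helps thrombin act on PAR4. TFPI shuts down the tissue factor complex, thrombomodulin (THBD) turns thrombin into an activator of protein C, and the endothelial protein C receptor (PROCR) presents protein C to that complex. Activated protein C bound to PROCR can in turn cut PAR1.

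The cut sites show how the receptors of this family differ. Each stretch below is coding sequence of GENCODE release 29 (GRCh38), 45 bases that lie within exon 2 of 2, and the capitals mark the 18 bases that code for the start of the tethered ligand. F2R is read from chr5:76732334-76732378 on the plus strand and is cut after codon 41. F2RL1 is read from chr5:76832701-76832745 on the plus strand and is cut after codon 36. F2RL2 is read from chr5:76618563-76618607 on the minus strand and is cut after codon 38.
F2R: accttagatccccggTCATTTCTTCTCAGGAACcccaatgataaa
F2RL1: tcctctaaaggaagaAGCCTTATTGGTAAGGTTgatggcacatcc
F2RL2: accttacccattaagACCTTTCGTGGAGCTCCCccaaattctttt
Position by position, the ligand bases of F2R matched those of F2RL1 at 6 of 18 positions and those of F2RL2 at 7 of 18, and F2RL1 matched F2RL2 at 7 of 18. Over the whole stretch F2R and F2RL2 shared 20 of 45 bases, F2RL1 and F2RL2 13, and F2R and F2RL1 11.

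F2RL1 (chromosome 5, 76818933 to 76835315) was the most abundant receptor transcript in 11 of 12 libraries. Replicates 1 and 2 had 22.1 and 24.8 TPM in sgRAC1 clone 1, 16.1 and 23.2 TPM in sgRAC1 clone 2, and 22.4 and 30.1 TPM in sgRAC1 clone 3. The parental line had 29.99 and 30.3 TPM, sgNTC clone 1 had 26.7 and 24.3 TPM, and sgNTC clone 2 had 5.19 and 5.29 TPM. Both libraries of sgNTC clone 2 thus lay below every other library, and the knockout libraries, at 16.1 to 30.1 TPM, overlapped those of the parental line and sgNTC clone 1. By line mean the order was parental (30.2 TPM), sgRAC1 clone 3 (26.3), sgNTC clone 1 (25.5), sgRAC1 clone 1 (23.4), sgRAC1 clone 2 (19.6) and sgNTC clone 2 (5.24). Among the first 5 lines each neighbour in this order overlapped the next in its libraries, and the gap to sgNTC clone 2 was the exception.

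The low level in sgNTC clone 2 was 18.8% of the mean of the other 2 RAC1-positive lines (5.24 and 27.8 TPM). It was seen in both batches, so it did not rest on the library with few genes. Since F2RL1 was chosen for this pattern, no test of it is read as a result. Of 9414 genes with a mean of at least 5 TPM, 231 (2.45%) had both libraries of sgNTC clone 2 below the other 10, and 20 (0.212%) also had them at or under 25% of the mean of those 10. F2RL1, at 21.0% of that mean, is among the 20, so these shares are a description and no measure of rarity. In bulk RNA a smaller share of expressing cells and less RNA per cell cannot be told apart. F2R, which ends 83152 bases before F2RL1 on the same chromosome, averaged 5.27 TPM in sgNTC clone 2, against 6.45 TPM in the parental line and 5.75 TPM in sgNTC clone 1. S100Z and CRHBP on the other side of F2RL1 were listed at 0 in every line, so they give no measure of the region.

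**Figure D1:**
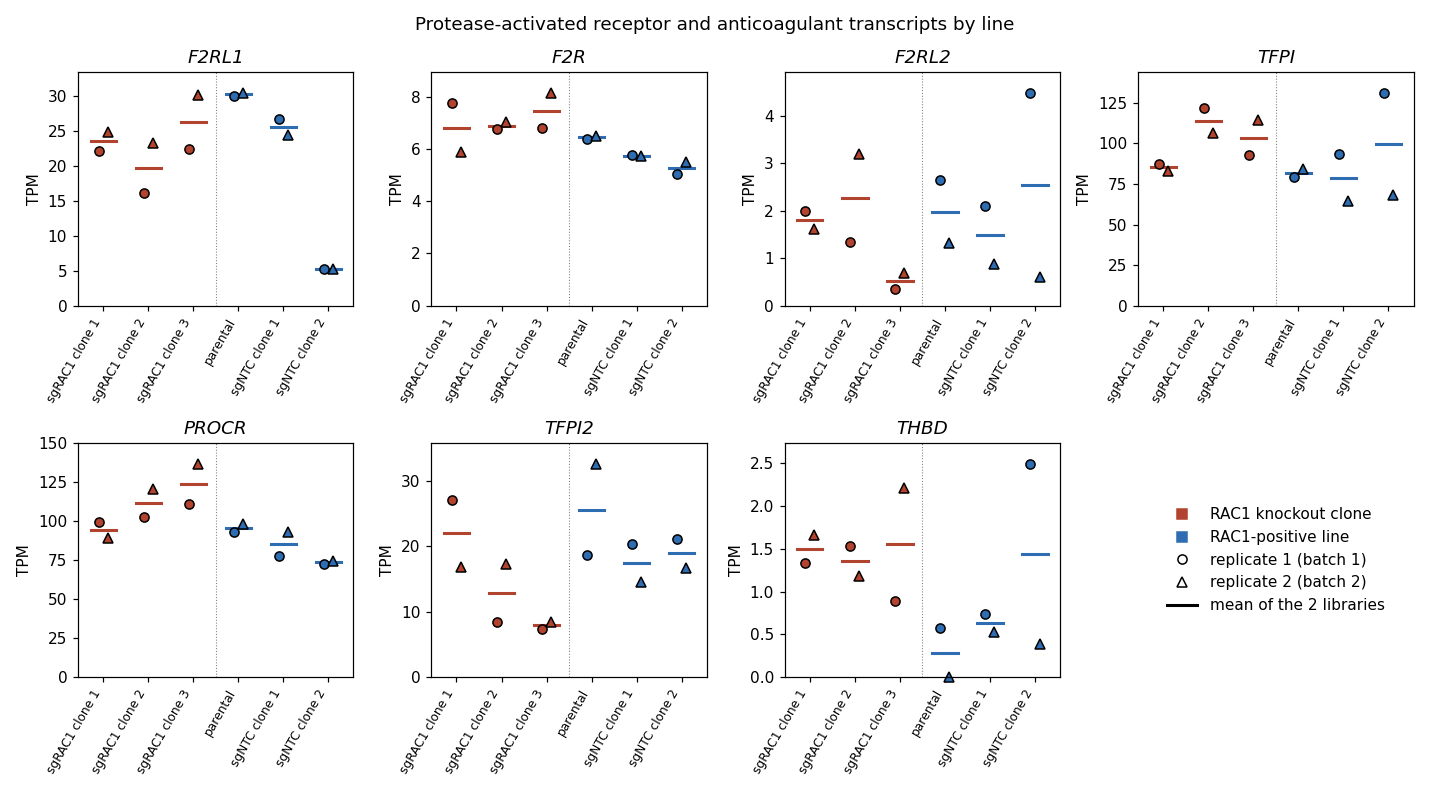
TPM of the 7 genes in each library, with the 3 knockout clones left of the 3 RAC1-positive lines, circles for replicate 1 (batch 1), triangles for replicate 2 (batch 2) and a bar at the mean of each line; each vertical axis starts at 0. F2RL1 stands at 5.19 and 5.29 TPM in sgNTC clone 2 and at 16.1 to 30.3 TPM in the other 10 libraries.

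F2R (chromosome 5, 76716043 to 76735781) was the second receptor by level and the steadiest of the 7 genes across lines. It had 7.74 and 5.89 TPM in sgRAC1 clone 1, 6.76 and 7.02 TPM in clone 2, and 6.79 and 8.13 TPM in clone 3. In parental cells it had 6.39 and 6.51 TPM, sgNTC clone 1 had 5.78 and 5.72 TPM, and sgNTC clone 2 had 5.03 and 5.52 TPM. Every knockout line mean was above every RAC1-positive line mean, while the single libraries overlapped through sgRAC1 clone 1 replicate 2. The line means spanned 5.27 to 7.46 TPM, a ratio of 1.41 between the highest and the lowest line, and the 3 knockout lines did not separate from one another. An antisense gene overlaps F2R in GENCODE, and likewise TFPI, TFPI2 and PROCR. The sources used here do not give the strand setting of the counting, so reads of such pairs may be shared.

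F2RL2 (chromosome 5, 76615482 to 76623434) was scarce, with a mean of 10.3 normalized counts per library in the authors' deposited table. It had 2.00 and 1.62 TPM in sgRAC1 clone 1, 1.34 and 3.19 TPM in clone 2, and 0.358 and 0.699 TPM in clone 3. Parental cells gave 2.64 and 1.32 TPM, sgNTC clone 1 had 2.11 and 0.879 TPM, and sgNTC clone 2 had 4.47 and 0.609 TPM. The highest value came from the library with few genes, and the lowest line was sgRAC1 clone 3. The gene lies on the minus strand inside IQGAP2, which is on the plus strand and averaged 0.953 ± 0.18 TPM across knockout lines, against 0.957 ± 0.24 TPM across RAC1-positive lines (SD, n = 3 each), so the same limit holds. F2RL3, the PAR4 gene, was listed at 0 in all 12 libraries.

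Together the receptors made up 24.2 to 38.97 TPM in the knockout libraries, 30.9 to 39.0 TPM in the parental line and sgNTC clone 1, and 14.7 and 11.4 TPM in sgNTC clone 2. F2RL1 held 66.5% to 77.3% of that sum in the knockout libraries and 76.9% to 79.5% in the parental line and sgNTC clone 1. In sgNTC clone 2 its share was 35.3% and 46.3%, with F2R at 34.2% and 48.3%. The share of F2RL2 in that line, 30.5% in replicate 1 and 5.33% in replicate 2, differed between its libraries.

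**Figure D2:**
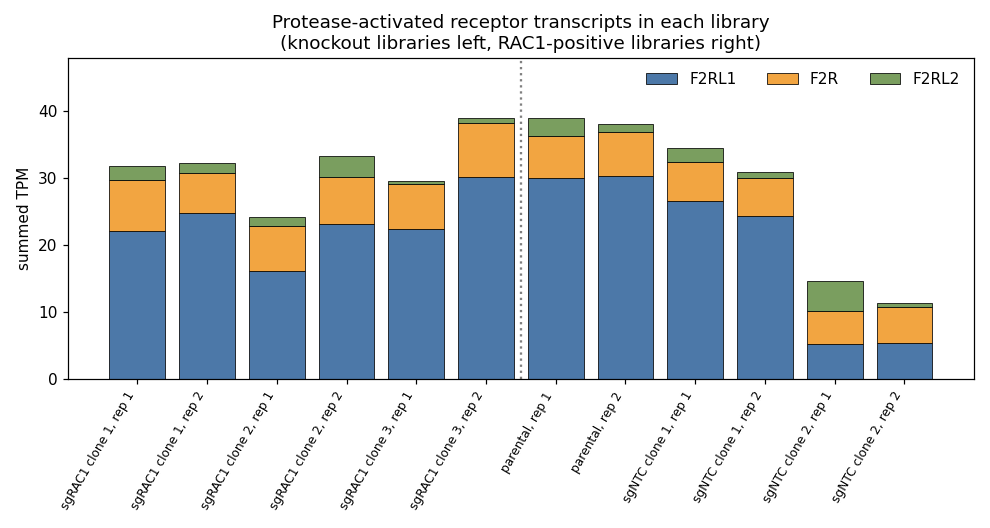
Stacked TPM of F2RL1, F2R and F2RL2 in each of the 12 libraries, knockout libraries left and RAC1-positive libraries right. The bars reach 24.2 to 39.0 TPM in 10 libraries, and the bars of sgNTC clone 2 reach 14.7 and 11.4 TPM with a shorter F2RL1 part.

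TFPI (chromosome 2, 187464230 to 187565760), the inhibitor of the tissue factor complex, was at or above 64.3 TPM in every library. It had 87.4 and 83.0 TPM in sgRAC1 clone 1, 121.8 and 106 TPM in clone 2, and 93.1 and 114 TPM in clone 3. Among RAC1-positive lines the parental one had 79.5 and 84.5 TPM, sgNTC clone 1 had 93.5 and 64.3 TPM, and sgNTC clone 2 had 131 and 68.1 TPM. The groups overlapped, and the highest library was again sgNTC clone 2 replicate 1. Without it the RAC1-positive libraries ran from 64.3 to 93.5 TPM, and 3 of 6 knockout libraries lay above that range. F3, which encodes tissue factor, averaged 26.7 ± 10.2 TPM across knockout lines, against 17.8 ± 6.12 TPM across RAC1-positive lines (SD, n = 3 each). The ratio of TFPI to F3 in TPM was 2.13 to 9.48 in the knockout libraries and 3.01 to 8.18 in the RAC1-positive libraries, with sgRAC1 clone 2 (6.58 and 9.48) the highest knockout clone and sgNTC clone 2 (8.18 and 7.98) the highest RAC1-positive line.

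TFPI2 (chromosome 7, 93885396 to 93890991), a matrix-bound relative that inhibits plasmin and trypsin, varied most among the knockout clones after F2RL2. It had 27.1 and 16.8 TPM in sgRAC1 clone 1, 8.38 and 17.3 TPM in clone 2, and 7.37 and 8.46 TPM in clone 3. Parental DU145 had 18.6 and 32.5 TPM, sgNTC clone 1 had 20.4 and 14.5 TPM, and sgNTC clone 2 had 21.1 and 16.7 TPM. Both libraries of sgRAC1 clone 3 and replicate 1 of clone 2 lay below all 6 RAC1-positive libraries, while sgRAC1 clone 1 lay within their range. The clone means were 22.0, 12.9 and 7.91 TPM, a ratio of 2.77 between the highest and the lowest. TFPI2 lies on the minus strand across GNGT1 on the plus strand, which averaged 2.77 ± 1.41 TPM across knockout lines, against 3.49 ± 0.70 TPM across RAC1-positive lines (SD, n = 3 each).

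THBD (chromosome 20, 23045633 to 23049741) was the scarcest of the 7 genes, with a mean of 7.84 normalized counts per library in the authors' deposited table. It had 1.33 and 1.66 TPM in sgRAC1 clone 1, 1.53 and 1.18 TPM in clone 2, and 0.896 and 2.22 TPM in clone 3. The parental cells gave 0.568 and 0 TPM, sgNTC clone 1 had 0.733 and 0.524 TPM, and sgNTC clone 2 had 2.49 and 0.381 TPM. All 6 knockout libraries lay above 5 of the 6 RAC1-positive libraries, and the sixth, sgNTC clone 2 replicate 1, was the highest of all 12. A mean of 1 TPM in either genotype was needed for the tests below. THBD met that condition through the knockout lines alone (1.47 ± 0.10 TPM across knockout lines, against 0.782 ± 0.59 TPM across RAC1-positive lines, SD, n = 3 each).

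PROCR (chromosome 20, 35172073 to 35216240) stood close to TFPI in level. It had 99.2 and 89.2 TPM in sgRAC1 clone 1, 103 and 121 TPM in clone 2, and 111 and 136.5 TPM in clone 3. Levels in the parental line were 92.9 and 98.2 TPM, sgNTC clone 1 had 77.8 and 93.0 TPM, and sgNTC clone 2 had 72.4 and 74.8 TPM. Of the knockout libraries 5 lay above all RAC1-positive libraries, and sgRAC1 clone 1 replicate 2 lay among them. By line mean, sgRAC1 clones 3 and 2 (124 and 112 TPM) were above the parental line (95.6 TPM), and sgRAC1 clone 1 (94.2 TPM) was just below it.

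The comparison between genotypes asked whether these transcripts differ when RAC1 is lost. None of the 7 genes passed, and nothing is read from the counts below, since the set was drawn up with this contrast known. The test was limma on 1 value per line (mean of log2(TPM + 1) over its 2 libraries), 3 knockout lines against 3 RAC1-positive lines, adjusted by Benjamini-Hochberg over 17367 genes with a call at 0.05. All 7 genes met the level condition, 0 of 7 were called, and 1 (PROCR) had an unadjusted p under 0.05. The share called over all genes was 0.00576%, a single gene, and 2256 genes had an unadjusted p under 0.05. That gene was RAC1 itself (log2 difference -1.89, SE 0.14, limma adjusted p = 0.0467). Since only the knocked-out gene passed, 0 of 7 called does not show that the 7 genes are unchanged. Taking the 12 libraries as samples, with a random effect for the line, limma also called 0 of 7, where 2.12% of all genes were called (1.69% higher). The correlation fitted within lines was -0.03, so that fit took the 2 libraries of a line almost as separate samples. A pass in it is therefore weaker than a pass per line. Adding a block for the replicate number, limma called 0 of 7 and 1.84% of all genes (1.42% higher). The lines of the genotypes were apart for 1 of 7, F2R, which was higher, and for 20.5% of all genes (11.6% higher, 8.96% lower).

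PROCR averaged 110 ± 14.9 TPM across knockout lines, against 84.8 ± 11.02 TPM across RAC1-positive lines (SD, n = 3 each), a log2 difference of 0.37 (SE 0.14, limma adjusted p = 0.341). F2R averaged 7.05 ± 0.35 against 5.82 ± 0.59 TPM in the same order of genotypes, a log2 difference of 0.24 (SE 0.14, limma adjusted p = 0.524). TFPI averaged 101 ± 14.6 TPM across knockout lines, against 86.8 ± 11.1 TPM across RAC1-positive lines, a log2 difference of 0.24 (SE 0.13, limma adjusted p = 0.487), or 0.40 without sgNTC clone 2 replicate 1 (limma adjusted p = 0.195) and 0.086 without replicate 2 of that line (limma adjusted p = 0.894). TFPI2 was the larger of the negative differences, at 14.2 ± 7.12 TPM across knockout lines, against 20.6 ± 4.33 TPM across RAC1-positive lines (log2 difference -0.61, SE 0.33, limma adjusted p = 0.473). For these 4 genes the sign was the same within both batches, at 0.37 and 0.36 for PROCR, 0.27 and 0.21 for F2R, 0.01 and 0.48 for TFPI, and -0.69 and -0.52 for TFPI2 in batches 1 and 2.

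The difference of F2RL1 turned on a single line. It averaged 23.1 ± 3.33 TPM across knockout lines, against 20.3 ± 13.3 TPM across RAC1-positive lines, a log2 difference of 0.46 (SE 0.57, limma adjusted p = 0.753). Without sgNTC clone 2 the difference was -0.27 (SE 0.16, limma adjusted p = 0.491). THBD had a log2 difference of 0.57 (SE 0.28, limma adjusted p = 0.432), which was 0.08 within batch 1 and 1.05 within batch 2, 0.79 (limma adjusted p = 0.169) without sgNTC clone 2 replicate 1, and 0.34 (limma adjusted p = 0.771) without its replicate 2. F2RL2 had a log2 difference of -0.22 (SE 0.32, limma adjusted p = 0.794), which was -0.90 in batch 1, 0.47 in batch 2, 0.08 without sgNTC clone 2 replicate 1 and -0.51 without its replicate 2. The change between batches was called in limma for 0 of 7 genes and for 0% of all genes, with 724 genes at an unadjusted p under 0.05. F2RL2 and THBD were among those 724 genes (limma adjusted p = 0.912 for both).

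**Figure D3:**
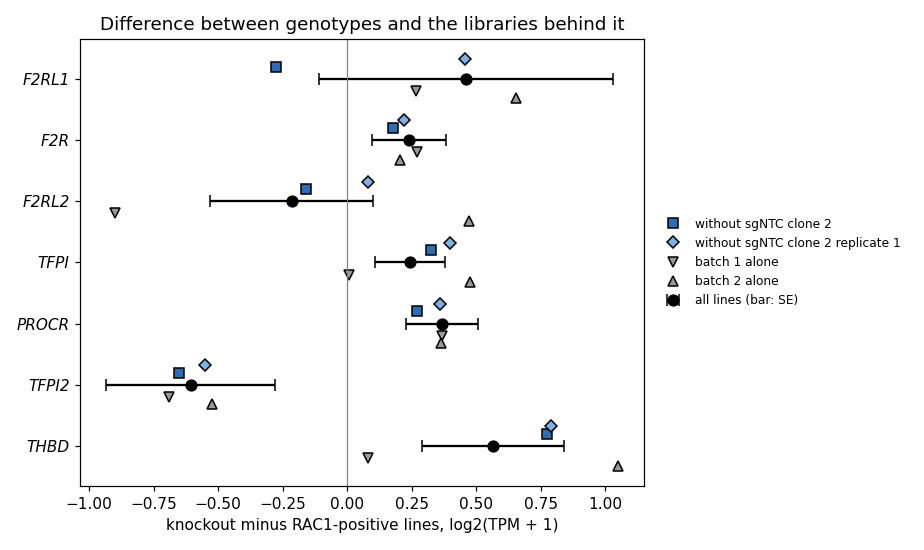
Difference of each gene between the knockout and the RAC1-positive lines on the log2(TPM + 1) scale, with all lines (black, bar 1 SE), without sgNTC clone 2, without its replicate 1, and in each batch. PROCR, F2R and TFPI stay right of 0 and TFPI2 left of it at each point drawn, while F2RL1 and F2RL2 have points on both sides.

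In the authors' deposited table, which holds a comparison in the columns that DESeq2 writes, 1 of the 7 genes was called at adjusted p 0.05, against 9.74% of all genes there (5.68% higher). It was THBD, with a log2 fold change of 1.48 (SE 0.47, adjusted p = 0.0221 in the authors' deposited table). PROCR was given there a log2 fold change of 0.33 and TFPI2 one of -0.52 (adjusted p 0.0770 and 0.320 as listed by the authors' deposited table). For F2RL1 the authors' deposited table gives 0.12 (SE 0.44, adjusted p = 0.928). Since the same libraries underlie that comparison and the TPM, they are not independent. The sources used here do not say how it handled the 2 libraries of a line.

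Differences within a genotype were examined with an F test over its 3 lines in limma, on the 12 libraries with a mean per line, so p rests on how far the 2 libraries of each line differ. Among the RAC1-positive lines 0 of 6 genes were called (F2RL1 left out, as it was chosen for this), none had an unadjusted p under 0.05, and adjusted p in limma ran from 0.821 to 0.966. Of all genes 0.0115% (2 genes) were called, and 998 had an unadjusted p under 0.05. Both of these counts include F2RL1, whose pass follows from how it was chosen and is not read as a result. Among the knockout clones limma called 0 of 7 genes, where 0.0576% of all genes were called. There TFPI2 had an unadjusted p of 0.0254 (limma adjusted p = 1) and was the 1 gene of the 7 under 0.05, as were 621 of all genes. Clones 2 and 3, the lower ones for TFPI2, share the guide sgRAC1_2, and with 1 clone of the other guide, clone and guide cannot be told apart.

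Other genes of the pathway were described next by fixed lists, with no list test. In each list the 2 genes of lowest p per line were named. That their lines are apart, or that they pass in another fit, partly follows from this choice and is no separate support. Of 13 anticoagulant genes, the 4 above included, 7 met the level condition. None was called by limma per line, 6 had a higher and 1 a lower knockout mean, and the median log2 difference was 0.38 over these 7, against 0.02 over all genes. THBD and SERPIND1 (2.13 TPM across knockout lines, 0.639 TPM across RAC1-positive lines) met the level condition through the knockout lines alone. For them the condition itself favoured a higher knockout mean, so nothing is read from the signs or the median. PROS1, which encodes protein S, the cofactor of activated protein C, averaged 19.6 ± 0.68 TPM across knockout lines, against 11.9 ± 1.26 TPM across RAC1-positive lines (SD, n = 3 each; log2 difference 0.67, SE 0.13, limma adjusted p = 0.150). ANXA5, which encodes annexin A5, a protein that covers the phospholipid on which clotting factors assemble, averaged 1143 ± 61.2 TPM across knockout lines, against 882 ± 2.12 TPM across RAC1-positive lines (log2 difference 0.38, SE 0.07, limma adjusted p = 0.143). Both had every knockout line above every RAC1-positive line, as had SERPIND1 in this list and 11.6% of all genes. Over the 12 libraries with a random effect for the line PROS1 and ANXA5 passed (limma adjusted p = 0.00881 and 0.0204), as did 2.12% of all genes. That fit took the 2 libraries of a line almost as separate samples, and per line neither gene passed. PROC, the protein C gene itself, stayed at or below 0.192 TPM, and SERPINC1, the antithrombin gene, was at 0 in every library.

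Of 20 genes of coagulation factors and the vitamin K cycle 9 met the level condition and limma called 0, with 8 higher, 1 lower and a median log2 difference of 0.24. F8 (1.06 TPM across knockout lines, 0.743 TPM across RAC1-positive lines) and F13A1 (1.35 and 0.0437 TPM) met it through the knockout lines alone. GAS6, lower in the knockout lines (0.506 and 0.968 TPM), fell under it. The condition itself thus favoured higher signs in this list. The thrombin gene F2 stayed at or below 0.253 TPM, F7 and F10 at or below 0.126 and 0.221 TPM, and F5, F9 and F11 were at 0 throughout. F3 had a log2 difference of 0.54 (SE 0.36, limma adjusted p = 0.571). GGCX, the carboxylase that vitamin K serves, averaged 7.81 ± 0.68 TPM across knockout lines, against 5.70 ± 0.79 TPM across RAC1-positive lines (SD, n = 3 each; log2 difference 0.41, limma adjusted p = 0.347). MCFD2, a cargo receptor subunit for factors V and VIII, averaged 76.6 ± 1.29 against 69.1 ± 3.16 TPM in the same order (log2 difference 0.14, limma adjusted p = 0.515).

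Of 22 listed proteases able to cut the receptors, 4 met the level condition, limma called 0 (3 higher, 1 lower, median log2 difference 0.44), and 8 were at 0 in every library, among them TMPRSS2, HPN and PRSS1. The matriptase gene ST14 stayed at or below 0.148 TPM. MMP13, a collagenase gene, averaged 1.56 ± 0.44 TPM across knockout lines, against 0.134 ± 0.15 TPM across RAC1-positive lines (SD, n = 3 each; log2 difference 1.14, SE 0.27, limma adjusted p = 0.199), and PRSS3, a trypsin gene, 2.59 ± 0.61 against 1.05 ± 1.00 TPM (limma adjusted p = 0.392). MMP13 met the level condition through the knockout lines alone, so the condition itself favoured a difference. Over the 12 libraries with a random effect for the line MMP13 passed (limma adjusted p = 0.0211). That fit took the 2 libraries of a line almost as separate samples. MMP1, a collagenase that can cut PAR1, was named after its values were seen, as the most abundant of these genes. It averaged 43.6 ± 48.6 TPM across knockout lines, against 78.1 ± 47.3 TPM across RAC1-positive lines, a log2 difference of -1.19 (SE 0.85, limma adjusted p = 0.596) within the spread of the lines.

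Signalling partners of the receptors made up a list of 22 genes in the table, 18 of them above the level condition, with 7 higher and 11 lower, a median log2 difference of -0.05, and 0 called by limma per line. RGS16 met the level condition through the knockout lines alone, and ADRBK1 through the RAC1-positive lines alone. PLCB4, a phospholipase C that Gq proteins activate, averaged 3.14 ± 0.32 TPM across knockout lines, against 5.79 ± 0.49 TPM across RAC1-positive lines (SD, n = 3 each; log2 difference -0.72, SE 0.16, limma adjusted p = 0.186). It passed over the 12 libraries with a random effect for the line (limma adjusted p = 0.0190). That fit took the 2 libraries of a line almost as separate samples. GNAI2, an inhibitory G protein subunit, averaged 15.9 ± 2.43 TPM across knockout lines, against 12.2 ± 2.80 TPM across RAC1-positive lines (limma adjusted p = 0.471). Of 10 Kunitz, serpin and related inhibitor genes 7 met the level condition, all 7 had a positive difference with a median log2 difference of 0.50, and limma called 0 per line. SLPI, a secreted inhibitor of leukocyte proteases, averaged 25.5 ± 10.96 TPM across knockout lines, against 3.11 ± 0.96 TPM across RAC1-positive lines (log2 difference 2.78, SE 0.35, limma adjusted p = 0.126). SPINT1, which inhibits matriptase, averaged 3.44 ± 0.76 TPM across knockout lines, against 0.582 ± 0.38 TPM across RAC1-positive lines (log2 difference 1.52, limma adjusted p = 0.143). SPINT1 met the level condition through the knockout lines alone, as MMP13 did. SPINT1 and SLPI passed once the line was a random effect (limma adjusted p = 0.00454 and 0.0119), as did SERPINE2 (0.0484). SERPINE2 did not pass once the replicate number was added as a block (limma adjusted p = 0.0688).

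**Figure D4:**
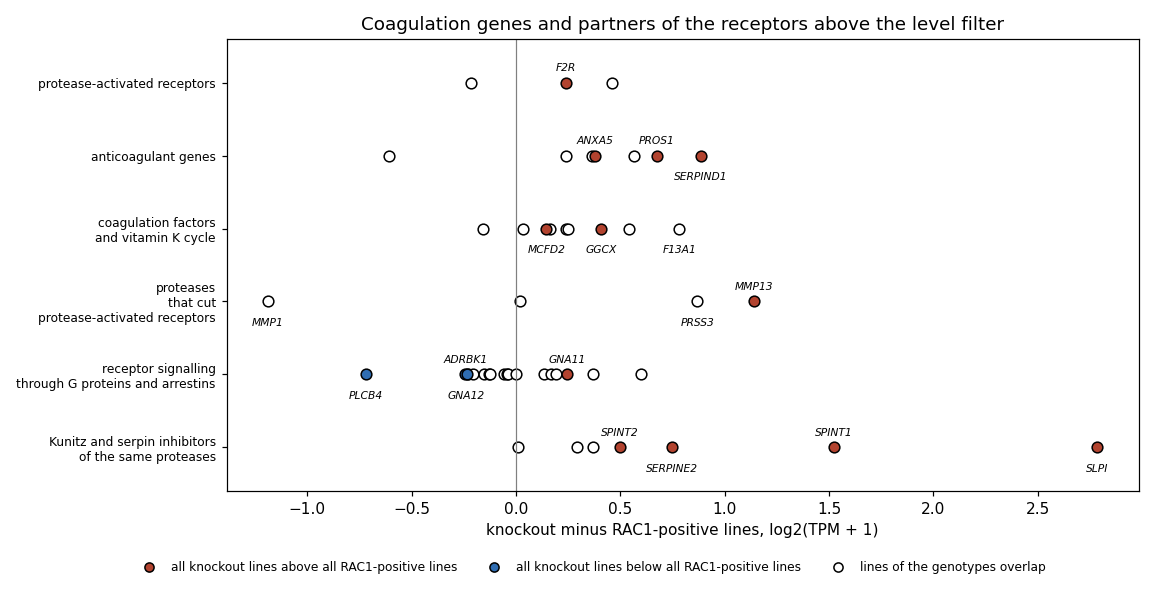
Log2(TPM + 1) difference between the knockout and the RAC1-positive lines for each listed gene above the level condition, 1 point per gene, in 6 lists; red points have every knockout line above every RAC1-positive line, blue points every knockout line below, and open points overlap. The 7 inhibitor genes of the bottom row lie at or right of 0 and reach 2.78 for SLPI, while F2R is the 1 red point among the receptors.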

How the data were processed

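RNA was sequenced from 12 libraries of 6 DU145 lines, and lines and batches were taken from the labels. Named in the submitters' processing notes are the aligner STAR 2.6.1d, bcl2fastq, DESeq2 and the build GRCh38. The sources used here do not give the counting tool, strand setting or annotation. The authors deposited TPM for 56832 genes. For 15140 of them the deposited table also holds, per the file headers, the authors' mean signal of normalized counts, log2 fold change with its standard error, Wald score, p-value and adjusted p-value. The sign of that fold change was read from RAC1.

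TPM keeps no depth, so precision is given by the spread of lines. The limma test written for normalized values was used (limma 3.58.1, R 4.3.3): log2(TPM + 1), averaged per line, trended variances, genes averaging 1 TPM or more in either genotype. Differences on this scale understate the change of genes near 1 TPM. A line counts as 1 sample; nothing says that the 2 replicates came from separate cultures beyond the word biological. Scripts were tested on simulated data. Positions came from GENCODE release 29 by symbol, and cut codons from textbook knowledge.

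The 7 genes and all lists were chosen with earlier results of these data known. Named genes were the 7, RAC1, F2RL3 and F3, from each other list any called gene or else the 2 of lowest p, the 2 genes most correlated with each member, and neighbours by position; some genes these rules name are not reported here. The labels tie each replicate number to a batch, so the numbers pair the samples. For 15 pairs of lines, deviations from the line means in like-numbered libraries correlated at -0.13 to 0.30. No 2 libraries held identical values.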

Additional observations from a re-analysis of the deposited data

How the results depend on the processing

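With the replicate number as a block, 0 of 7 genes were called between genotypes, 0 among the knockout clones and 0 of 6 among the RAC1-positive lines. These counts of 0 also held under median-of-ratios and upper quartile scaling, no level filter, a filter of 5 TPM, pseudocounts of 0.1 and 5, and without any 1 library, and the count between genotypes also in either batch alone and without any 1 line. The direction of F2R, THBD, PROCR, TFPI and TFPI2 was the same under each of these settings. F2RL1 was lower in the knockout lines (-0.27 on the log2 scale) without sgNTC clone 2. F2RL2 was higher in batch 2 alone (0.47), without sgRAC1 clone 3 (0.11) and without sgNTC clone 2 replicate 1 (0.079), and leaving out a line or library put it between -0.51 and 0.11. THBD was 0.17 at a pseudocount of 5 and 1.36 at 0.1, and F2RL2 and THBD were not tested with a filter of 5 TPM. TFPI2 lay between -0.96 without sgRAC1 clone 1 and -0.29 without sgRAC1 clone 3. Over all genes limma called 1 per line, which was RAC1. It called 0 under either scaling or without sgNTC clone 2, so RAC1 did not pass there, and 22 without replicate 1 of that line. Depth is unknown, so no limit of detection can be set for genes at 0.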

Other observations

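PROCR lies between EDEM2, which encodes an endoplasmic reticulum protein that trims misfolded glycoproteins, and the membrane metalloproteinase gene MMP24. EDEM2 ends 24709 bases before PROCR and averaged 121 ± 17.0 TPM across knockout lines, against 80.4 ± 5.47 TPM across RAC1-positive lines (SD, n = 3 each; log2 difference 0.58, SE 0.12, limma adjusted p = 0.177). MMP24 starts 10414 bases after PROCR and averaged 7.05 ± 2.71 against 1.99 ± 0.75 TPM in the same order (log2 difference 1.41, SE 0.29, limma adjusted p = 0.160). Both had every knockout line above every RAC1-positive line, as had 11.6% of all genes, and neither passed. The lines of the genotypes overlapped for POC5, NXT1, GULP1 and VPS50, tested neighbours of F2RL2, THBD, TFPI and TFPI2. TRPC4AP, the next gene beyond EDEM2, averaged 11.8 ± 2.15 TPM across knockout lines, against 9.23 ± 2.55 TPM across RAC1-positive lines (limma adjusted p = 0.564). Beside TFPI2, the G protein gamma subunit gene GNG11 averaged 39.3 ± 4.97 TPM across knockout lines, against 52.2 ± 9.31 TPM across RAC1-positive lines, again with the lines apart and limma adjusted p = 0.354, and BET1 62.0 ± 0.24 against 68.6 ± 9.04 TPM.

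The urokinase gene PLAU, whose product starts plasmin formation, had the second highest correlation with F2RL1 over the 12 libraries (Pearson r = 0.91), out of 9413 genes with a mean of at least 5 TPM. It rests on sgNTC clone 2: over the 10 libraries of the other lines r was 0.48. PLAU averaged 104, 98.1 and 106 TPM in sgRAC1 clones 1, 2 and 3, 114 TPM in the parental line, 92.0 TPM in sgNTC clone 1 and 61.1 TPM in sgNTC clone 2. The gene listed as RP11-96H19.1 had r = 0.91 with F2RL1, or 0.58 over those 10 libraries. Leaving out that line was chosen after seeing the data. PROCR was most correlated with NSDHL, a cholesterol synthesis gene (r = 0.94, both with and without that line), and SLC35G2 (r = 0.94). THBD was most correlated with LAMP2 (r = 0.90), TFPI with NBDY and PFDN1 (r = 0.95 for both), F2R with S100A16 and ZNF860 (r = 0.90 for both), TFPI2, after a gene with a clone name (r = 0.90), with SH3YL1 (r = 0.87), and F2RL2 with ARL6 and UBE2E1 (r = 0.91 and 0.86). Without sgNTC clone 2 replicate 1, r was 0.86 for THBD with LAMP2, and 0.93 and 0.94 for TFPI with NBDY and PFDN1. For F2RL2 without that library r was 0.88 with ARL6 and 0.78 with UBE2E1. The libraries of a line share a clone, so the 12 points are not independent.

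Epithelial genes outside the clotting pathway were measured in the same libraries. EPCAM, an epithelial adhesion gene, averaged 43.8 ± 6.72 TPM across knockout lines, against 24.2 ± 2.10 TPM across RAC1-positive lines (SD, n = 3 each; limma adjusted p = 0.150), and the E-cadherin gene CDH1 13.5 ± 4.13 against 3.98 ± 1.51 TPM in the same order (limma adjusted p = 0.156). Of 9 genes of the epithelial list 7 met the level condition, 5 higher and 2 lower, and limma called 0 per line. EPCAM and CDH1 were named as the 2 genes of lowest p in this list. Over the 12 libraries with a random effect for the line they passed (limma adjusted p = 0.0184 and 0.0117), as did CLDN7 (0.0256). Of all genes 2.12% passed in that fit, and passes of genes picked by p in the same libraries are no separate support. That fit took the 2 libraries of a line almost as separate samples. CD14 was the 1 blood cell marker above the level condition, which it met through the knockout lines alone, at 1.79 ± 1.28 TPM across knockout lines, against 0.440 ± 0.24 TPM across RAC1-positive lines (limma adjusted p = 0.367).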
